A study of Mus musculus with 3 samples.

Results

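The genes described here are a module of type I interferon response genes, 43 genes chosen by symbol and looked up in the gene list of each library. Of these, 42 matched a feature among the 32285 genes listed, and Mx1 was not analysed here. Transcripts were counted in single bone marrow cells of male mice aged 6 weeks, 2 libraries carrying the genotype label Ep300-Znf384-V5-HA (called fusion replicates 1 and 2) and 1 library labelled wild type. The label names a fusion of Ep300, a histone acetyltransferase, to the zinc finger factor Znf384, with V5 and HA tags. Each library pooled 5000 live cells sorted from whole marrow with 5000 live cells sorted from a lineage-negative fraction, taken from femur and tibia after red cell lysis. The question set by the study's title is how such fusion proteins disturb blood lineages, and the comparison made here is fusion against wild type, within each cell class. The labels give no other treatment, no strain, no promoter for the fusion allele and no batch, and they do not say that the libraries came from separate animals.

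Type I interferons bind a receptor of the chains Ifnar1 and Ifnar2, whose kinases Jak1 and Tyk2 phosphorylate transcription factors such as Stat2. Stat2 joins Irf9 in a complex that binds interferon-stimulated response elements in the promoters of its target genes. The targets include sensors of foreign nucleic acid, enzymes that block viral RNA or protein synthesis, and brakes on the receptor. In bone marrow a low tonic interferon signal keeps many of these genes on without infection, and interferon acts on stem cells as well as on mature immune cells.

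These promoters are shown because their genes had the most classes with lower expression in the fusion libraries, or as windows with and without the core of the response element. Isg15 (4 classes), Rsad2 (3 classes), Ifit1 (2 classes) and Irf7 (2 classes) are each given as the 250 bases before the RefSeq transcript start, on the gene's strand, in GRCm38.p6. The capitals mark GAAA, any 2 bases and GAAA again, or the reverse complement (TTTC, any 2 bases and TTTC), the tandem core of the interferon-stimulated response element, searched on both strands with overlapping matches kept. Ifi27l2a and Oas2, which also fell in 3 classes, had no entry in the promoter table. Irf7 and Ifit1 were chosen among the genes with 2 classes after the matches had been seen.
Isg15, chr4:156200819-156201068, minus strand: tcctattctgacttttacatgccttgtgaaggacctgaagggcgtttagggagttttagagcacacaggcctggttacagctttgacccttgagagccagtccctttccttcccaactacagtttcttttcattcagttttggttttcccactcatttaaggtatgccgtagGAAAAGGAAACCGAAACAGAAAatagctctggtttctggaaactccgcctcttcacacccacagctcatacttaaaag
Rsad2, chr12:26456453-26456702, minus strand: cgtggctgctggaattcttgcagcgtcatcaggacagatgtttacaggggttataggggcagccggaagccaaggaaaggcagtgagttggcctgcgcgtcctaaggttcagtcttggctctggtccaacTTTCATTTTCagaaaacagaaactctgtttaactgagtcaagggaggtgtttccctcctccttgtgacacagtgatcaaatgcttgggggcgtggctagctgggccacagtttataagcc
Ifit1, chr19:34640639-34640888, plus strand: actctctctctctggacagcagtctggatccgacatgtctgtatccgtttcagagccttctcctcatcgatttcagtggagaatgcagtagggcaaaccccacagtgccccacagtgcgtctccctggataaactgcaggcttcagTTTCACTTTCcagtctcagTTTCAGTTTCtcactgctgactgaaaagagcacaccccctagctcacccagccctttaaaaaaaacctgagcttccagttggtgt
Irf7, chr7:141266425-141266674, minus strand: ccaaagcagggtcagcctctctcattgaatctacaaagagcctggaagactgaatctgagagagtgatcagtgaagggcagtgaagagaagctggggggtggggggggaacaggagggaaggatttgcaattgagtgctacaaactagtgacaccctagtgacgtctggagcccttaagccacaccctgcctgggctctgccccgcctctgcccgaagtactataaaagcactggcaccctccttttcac
The Isg15 promoter held 3 overlapping matches, of which the nearest began 66 bases before the transcript start. In the Ifit1 promoter 2 matches began 104 and 85 bases before the start, and in the Rsad2 promoter the single match began 120 bases before it. The Irf7 window held no match. Over all interferon response genes with an entry, 16 of 32 had a match, against 936 of 27025 genes (3.46%). Among the members lower in fusion mature neutrophils 11 of 20 had a match, and among those tested there without a call 3 of 8. A match is a description of the letters and was not tested as a binding site.

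The genes lie in family clusters as well as singly. Ifit2, Ifit3, Ifit3b and Ifit1 follow each other on chromosome 19 between bases 34550694 and 34650009, and Rsad2 and Cmpk2 are neighbours on chromosome 12. Gbp7, Gbp3 and Gbp2 share a stretch of chromosome 3, and the oligoadenylate synthetase genes sit on chromosome 5 in 2 groups. No member lies on chromosome 15, which holds Ep300. Zfp384, the mouse gene for Znf384, lies on chromosome 6, as do the members Usp18 and Herc6.

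The 3 libraries held 8122 to 9354 barcodes, of which 6894 to 7434 were kept, with median depths of 7344 to 10014 unique molecular identifiers (UMIs) per cell. Cell classes were named from marker genes and are resemblances by markers. Pairs of libraries shared 19 to 23 barcodes, of which 9 to 17 were kept in both. Ep300 stood at 69.2 and 52.9 in fusion replicates 1 and 2 and at 85.8 in wild type on a counts-per-million (CPM) scale, and Zfp384 (the mouse gene symbol for Znf384) at 26.5, 19.5 and 15.5 CPM. The files list no feature for the fusion transcript, and it is not given which gene its 3' end is counted under, so these levels do not check the labels. In mature neutrophils, different clusters held the 2 genotypes: clusters 10, 11 and 12 were nearly all fusion cells and clusters 23 and 24 nearly all wild-type cells, although no member was used to form clusters.

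Interferon response genes were called lower in fusion mature and immature neutrophils, in stem, multipotent and lymphoid progenitors and in erythroid progenitors. In basophils and mast cells 1 of 32 members (3.1%) was called lower, a smaller share than the 7.04% of all genes. In the other 8 classes tested, lymphocytes among them, edgeR called 0 members lower. Counts summed over all cells of a library gave 31 of 42 genes lower and 0 higher (edgeR quasi-likelihood test, adjusted p under 0.05 over all genes), and a single gene, Isg20, was above wild type in both fusion libraries. Of all genes tested in that sum, 10.7% were called lower and 3.24% higher. The median log2 fold change of the members was -0.81, against 0.00 for all genes, and 41 of 42 had both fusion libraries below wild type, against 40.7% of all genes. When each library was made to hold the same number of cells of every class, 20 of 42 were called lower (2.98% of all genes) and 41 stood below wild type in both fusion libraries (36.3% of all genes). In a sum over cells, fewer cells of a type and less RNA per cell cannot be told apart. Within classes, 48 of 414 gene and class pairs were lower and 2 were higher, and 28 genes were called lower in at least 1 class.

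**Figure D1:**
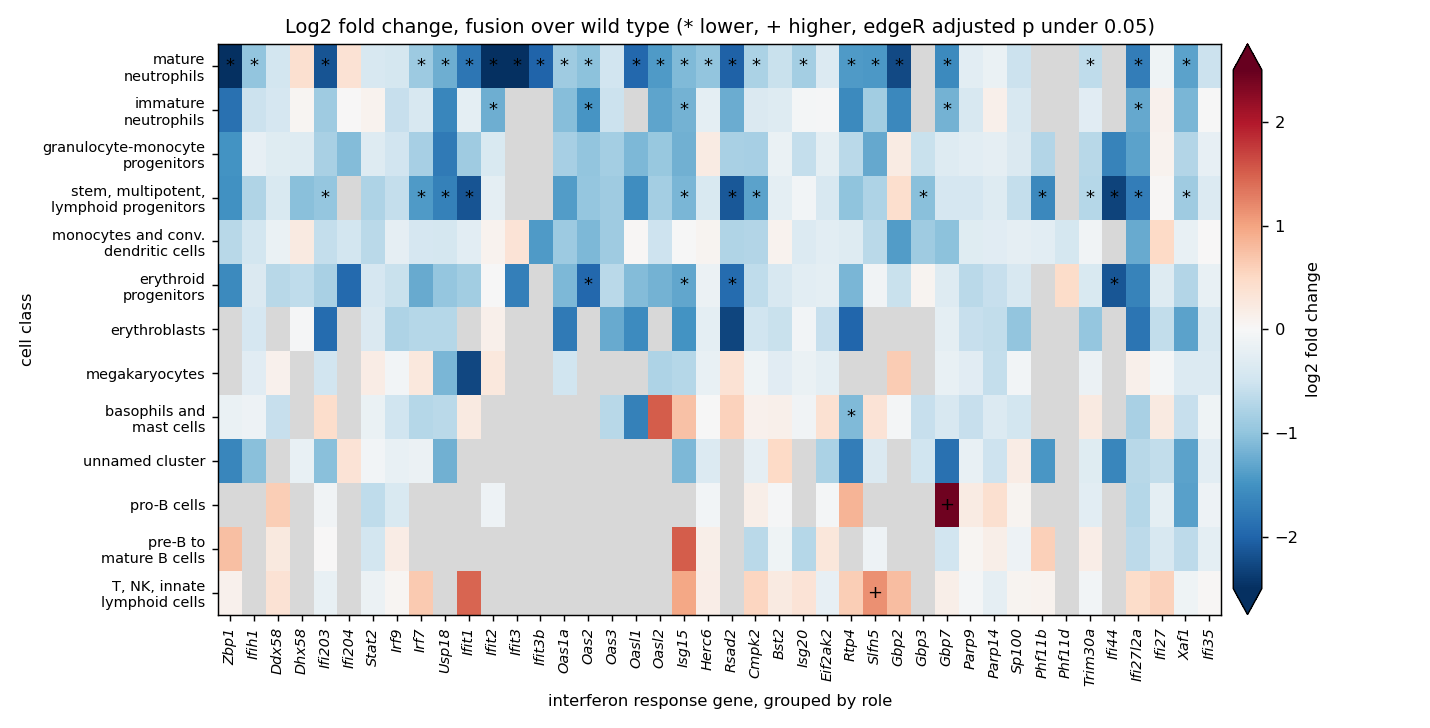
Log2 fold change of each interferon response gene (columns, grouped by role) in each of the 13 classes tested (rows), fusion over wild type; grey cells were not tested, stars mark genes called lower and plus signs genes called higher by edgeR. The row of mature neutrophils holds 25 stars and that of stem, multipotent and lymphoid progenitors 13, and the 3 lymphocyte rows hold 2 plus signs and no star.

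Mature neutrophils held the largest number of lower genes. Of 38 members tested there, 25 were lower and 0 higher, where 5.46% of all genes were called lower and 3.1% higher. The median log2 fold change was -0.98, against 0.02 for all genes, and 34 of 38 had both fusion libraries below wild type (36% of all genes). Fusion replicate 2 lay between fusion replicate 1 and wild type for most members: it was above fusion replicate 1 for 35 of 42. Median depths in the class were 2351, 3084.5 and 3031 UMIs per cell in fusion replicate 1, fusion replicate 2 and wild type. Values are CPM on effective library sizes (normalised CPM), given for the libraries in that same order, and each p is edgeR's adjusted p.

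**Figure D2:**
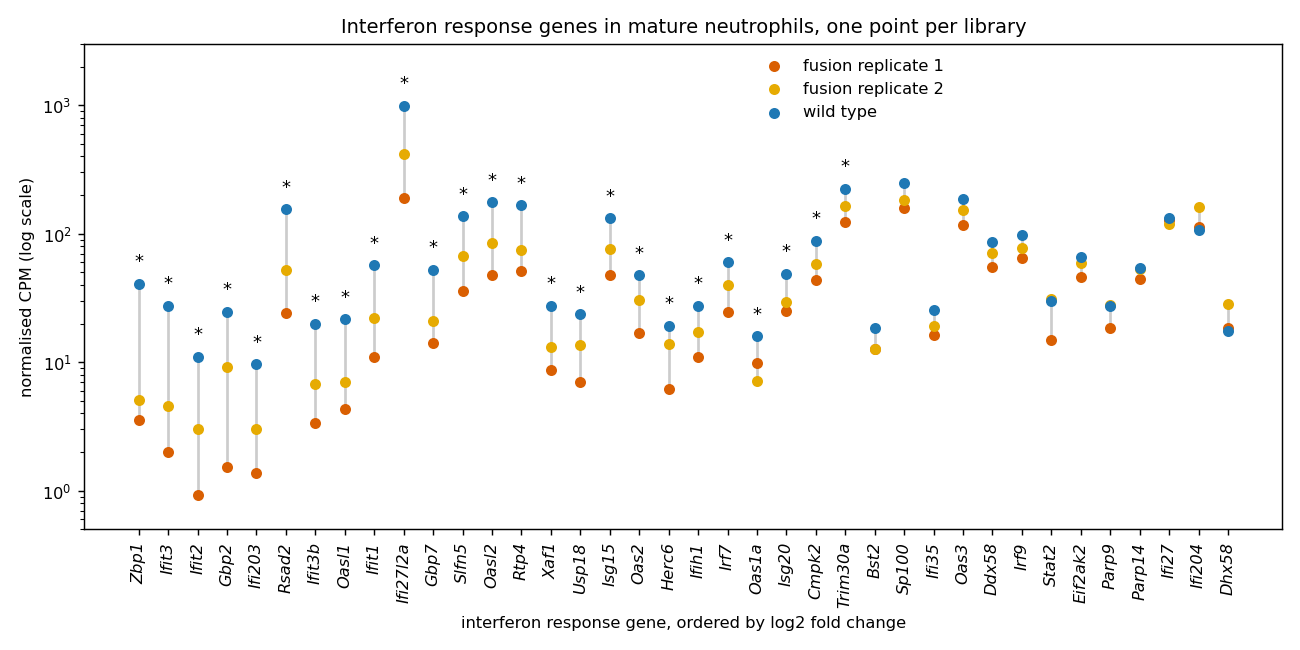
Normalised CPM (log scale) of the 38 interferon response genes tested in mature neutrophils, one point per library, ordered by log2 fold change; stars mark the 25 genes called lower. The wild-type point is the highest of the 3 for all starred genes, and the points draw together to the right, where Ifi27 and Ifi204 stand.

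Among the nucleic acid sensors, 3 of 6 fell in mature neutrophils. Zbp1, which binds left-handed nucleic acid and can start necroptosis, was at 3.54, 5.09 and 40.7 normalised CPM, a log2 fold change of -3.25 (SE 0.28, edgeR adjusted p = 7.56e-28). Both fusion libraries lay far below wild type and close to each other. Ifi203, of the interferon-inducible p200 family of DNA-binding proteins, was at 1.39, 3.02 and 9.66, and Ifih1, the sensor of long double-stranded RNA, at 11.1, 17.2 and 27.6. Their log2 fold changes were -2.17 (SE 0.43, edgeR adjusted p = 1.74e-05) and -0.98 (SE 0.25, edgeR adjusted p = 0.00224). The RNA sensor Ddx58 did not pass the test (54.6, 70.9 and 86.4, edgeR adjusted p = 0.153). Its partner Dhx58 (18.3, 28.5 and 17.6) and Ifi204, a further p200 gene (112, 162 and 106), had both fusion libraries above wild type and did not pass either.

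Of the genes that carry the signal or restrain it, 2 of 4 fell. Irf7, the transcription factor that amplifies interferon production, was at 24.5, 39.8 and 60.2 normalised CPM, a log2 fold change of -0.92 (SE 0.21, edgeR adjusted p = 0.000401). Usp18, which removes Isg15 from proteins and damps the receptor, was at 7.08, 13.6 and 23.7, a log2 fold change of -1.22 (SE 0.27, edgeR adjusted p = 0.000168). For both, the libraries were ordered fusion replicate 1, fusion replicate 2, wild type. The constitutive parts of the transcription complex moved less and were not called: Irf9 was at 65.3, 77.7 and 97.4, and Stat2 at 14.8, 31.3 and 30.02, with fusion replicate 2 just above wild type.

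All 4 IFIT genes, whose products bind foreign RNA, fell in mature neutrophils, with log2 fold changes from -3.11 to -1.81. Ifit3 was at 2.001, 4.52 and 27.6 normalised CPM, a log2 fold change of -3.11 (SE 0.31, edgeR adjusted p = 3.62e-20). Ifit1 was at 10.9, 22.1 and 56.9, a log2 fold change of -1.81 (SE 0.22, edgeR adjusted p = 2.4e-13). In both genes wild type stood above both fusion libraries by more than the fusion libraries stood apart. Ifit2 was lower at a low level (0.924, 3.02 and 11.1), as was Ifit3b (3.39, 6.79 and 20.01). Ifit3 and Ifit3b are near-identical copies, and the sources used here do not say how reads shared between copies were counted, so their separate values are uncertain.

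Of the oligoadenylate synthetase family, whose enzymes activate RNase L or bind RNA without that activity, 4 of 5 fell. Oasl1 was at 4.31, 6.97 and 21.6 normalised CPM, a log2 fold change of -1.95 (SE 0.30, edgeR adjusted p = 6.48e-09). Oasl2, the more abundant of this pair, was at 47.6, 84.6 and 177, a log2 fold change of -1.43 (SE 0.19, edgeR adjusted p = 2.53e-11). Oas2 and Oas1a fell less, with log2 fold changes of -1.02 and -0.90. Oas3 was at 117, 152 and 186 and was not called (edgeR adjusted p = 0.14).

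Both genes of the ubiquitin-like pathway fell. Isg15, a ubiquitin-like protein attached to others and secreted, was at 47.7, 76.0 and 133 normalised CPM, a log2 fold change of -1.11 (SE 0.19, edgeR adjusted p = 8.31e-07). Herc6, its ligase in mice, was at 6.16, 13.8 and 19.3, a log2 fold change of -0.98 (SE 0.28, edgeR adjusted p = 0.00822).

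Of 7 antiviral effectors tested, 5 fell. Rsad2 (viperin, which makes a chain-terminating nucleotide) was at 24.3, 52.2 and 154 normalised CPM, a log2 fold change of -2.03 (SE 0.20, edgeR adjusted p = 1.58e-21). Its neighbour Cmpk2, a mitochondrial nucleotide kinase, was at 44.0, 58.2 and 88.1, a log2 fold change of -0.79 (SE 0.20, edgeR adjusted p = 0.00186). The pair fell together, Rsad2 by more. Slfn5, of the Schlafen family, was at 35.6, 66.7 and 137, and Rtp4, an antiviral zinc finger protein, at 51.3, 75.0 and 167. The exonuclease Isg20 was at 25.2, 29.6 and 49.0, a log2 fold change of -0.84 (SE 0.22, edgeR adjusted p = 0.0025). Bst2 (tetherin, 12.8, 12.6 and 18.6) and Eif2ak2 (the kinase PKR, 46.2, 59.2 and 66.2) had both fusion libraries below wild type and were not called.

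Among the remaining families, both guanylate-binding GTPases tested, 1 of 2 nuclear genes and 2 of 4 other induced genes fell, and neither of the ADP-ribosyltransferases Parp9 and Parp14 did. Gbp2 was at 1.54, 9.24 and 24.8 normalised CPM, with a wide gap between the fusion libraries, and Gbp7 at 14.01, 21.1 and 52.5. Their log2 fold changes were -2.27 (SE 0.30, edgeR adjusted p = 6.04e-12) and -1.59 (SE 0.22, edgeR adjusted p = 1.84e-10). Trim30a, a regulator of innate signalling, was at 123, 166 and 223 and had the smallest of the changes called, -0.63 (SE 0.20, edgeR adjusted p = 0.024). Ifi27l2a, the most abundant member in neutrophils, was at 189, 416 and 995, a log2 fold change of -1.72 (SE 0.21, edgeR adjusted p = 1.77e-14). Xaf1, an antagonist of a caspase inhibitor, was at 8.77, 13.2 and 27.6. Ifi27, the neighbour of Ifi27l2a on chromosome 12, was nearly level at 129, 119 and 133.

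Lower members were also called in neutrophil clusters that the genotypes shared, which were examined after the first results had been seen. Clustering without the variable genes called between genotypes gave 2 neutrophil clusters with cells of all libraries, and 13 of 38 members were lower in the cluster led by Retnlg and Mmp9 (2.03% of all genes). In the cluster led by Il1b and Cxcr2, 19 of 38 were lower (3.72% of all genes). Zbp1 was at 3.66, 4.44 and 35.4 normalised CPM in the first cluster and at 2.06, 5.95 and 51.3 in the second. The summed level of 11 mature neutrophil markers in the mature neutrophil class was 49173, 45864 and 44161 CPM (on library totals, as for all summed levels), and that of 11 monocyte markers 1170, 1030 and 924, with 7 of these lower and 3 higher in both fusion libraries and Ace at 0. The neutrophil list holds Retnlg and Mmp9 of the first cluster as well as Il1b and Cxcr2 of the second. Within a genotype the summed members varied between clusters of the main clustering, and the part of this was not tested. In fusion replicates 1 and 2 they stood at 1317 and 1472 CPM in cluster 10 and 1938 and 2557 in cluster 11. In cluster 12, led by Il1b, they stood at 2606 and 3909. Wild type was at 2385 in cluster 24 and 4866 in cluster 23, the latter led by Il1b. Markers of granulocyte-monocyte progenitors (10 genes; 292, 147 and 557) and of T, NK and innate lymphoid cells (13 genes; 8.90, 9.33 and 35.6) summed to less in the fusion neutrophils, and their part in the result was not tested. DESeq2 called 7 of the 25 members lower (1.12% of all genes it tested): Zbp1, Ifit3, Ifit1, Gbp7, Slfn5, Oasl2 and Rtp4.

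Stem, multipotent and lymphoid progenitors had 13 of 38 members lower and 0 higher, where 2.14% of all genes were called lower and 0.782% higher. The median log2 fold change was -0.87, against 0.00 for all genes, and 35 had both fusion libraries below wild type (35.3% of all genes). Ifi44, an interferon-induced GTP-binding protein, was at 9.02, 12.7 and 54.5 normalised CPM, a log2 fold change of -2.31 (SE 0.23, edgeR adjusted p = 8.17e-06). Its expression was mostly outside neutrophils, with 243 UMIs in wild-type progenitors and 5 in wild-type mature neutrophils. Rsad2 was at 3.38, 5.69 and 20.2, a log2 fold change of -2.13 (SE 0.35, edgeR adjusted p = 0.00123). Ifi203 was the most abundant called member here, at 157, 178 and 330, a log2 fold change of -0.97 (SE 0.18, edgeR adjusted p = 0.00363). Both fusion libraries lay close together for this gene and far from wild type. Ifi27l2a was at 29.7, 66.9 and 161 and Isg15 at 13.5, 21.1 and 38.8. Irf7 was at 4.88, 10.4 and 20.6, a log2 fold change of -1.41 (SE 0.33, edgeR adjusted p = 0.0216). The other 7 were Ifit1, Usp18, Phf11b, Cmpk2, Gbp3, Xaf1 and Trim30a, with log2 fold changes from -2.15 to -0.71.

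The makeup of this class differed between genotypes: 8 lymphoid progenitor markers summed to 1961, 1801 and 3559 CPM, 11 monocyte markers to 121, 163 and 289 with Ace at 0, and 12 stem and multipotent progenitor markers to 1581, 1477 and 1241. The part of these shifts in the class as a whole was not tested, but its stem-like cluster, led by Hlf and Adgrl4, was also taken alone from a finer clustering. In the stem-like cluster 11 of 38 members were lower (0.848% of all genes), with a median log2 fold change of -0.89. Rsad2 was at 3.72, 6.25 and 33.2 normalised CPM there, a log2 fold change of -2.70 (SE 0.36, edgeR adjusted p = 1.44e-10). Ifi27l2a was at 8.38, 35.9 and 91.1, a log2 fold change of -2.004 (SE 0.21, edgeR adjusted p = 3.7e-17). In the cluster resembling lymphoid progenitors, led by Dntt, 3 of 25 members were lower (0.469% of all genes), namely Gbp3, Ifi44 and Rtp4. DESeq2 called only Ifi44 lower in the class.

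Erythroid progenitors had 4 of 40 members lower and 0 higher, where 0.715% of all genes were called lower and 0.258% higher. Of these members 36 of 40 had both fusion libraries below wild type (36.4% of all genes). Isg15 was at 8.55, 10.2 and 23.1 normalised CPM, a log2 fold change of -1.30 (SE 0.15, edgeR adjusted p = 0.00348). Ifi44 (0.861, 1.12 and 4.40), Oas2 (0.509, 0.634 and 2.25) and Rsad2 (0.900, 2.04 and 5.59) fell from low levels. The median log2 fold change was -0.65, against 0.00 for all genes. The 11 monocyte markers summed to 11.5, 11.1 and 27.7 CPM in this class, 9 of them lower in both fusion libraries, and their part was not tested. Immature neutrophils had 5 of 35 lower (1.1% of all genes) and 0 higher (0.952%), the 5 being Oas2, Ifi27l2a, Ifit2, Gbp7 and Isg15. Oas2 was at 4.52, 8.25 and 17.5, a log2 fold change of -1.47 (SE 0.29, edgeR adjusted p = 0.0215). In basophils and mast cells only Rtp4 of 32 members was called (5.57, 9.88 and 17.4, edgeR adjusted p = 0.0362), where 7.04% of all genes were lower and 3.26% higher. Mature neutrophil markers (11 genes) summed to 1725, 1579 and 3347 CPM in that class, and their part was not tested.

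Granulocyte-monocyte progenitors had 0 of 39 members called by edgeR, which called 0.0412% of all genes lower and 0.0165% higher there, and 0 by DESeq2. At an unadjusted p under 0.05, 18 members were lower in edgeR (4.39% of all genes) and 0 were higher. Wild type was above both fusion libraries for 36 of 39 members, against 34% of all genes, with a median log2 fold change of -0.69. Ifi203 was at 57.6, 69.9 and 112 normalised CPM and Ifi27l2a at 12.7, 23.7 and 46.5. The 11 monocyte markers summed to 967, 1009 and 1377 CPM in this class, each lower in both fusion libraries, and their part was not tested. Erythroblasts likewise had 0 of 28 members called by edgeR (0.401% of all genes called lower, 0.0527% higher) and 0 by DESeq2, with 16 at an unadjusted p under 0.05, all lower (5.57% of all genes). In them 26 of 28 had both fusion libraries below wild type (37.3% of all genes), among them Sp100, a nuclear body protein, at 15.8, 15.2 and 30.5. Megakaryocytes had 0 of 28 members called by edgeR (0.631% of all genes called lower, 0.061% higher) and 0 by DESeq2, with 3 lower at an unadjusted p under 0.05 (5.15% of all genes). Wild type was the highest library for 18 of 28 members (36.5% of all genes), with Ifi203 at 40.0, 42.4 and 57.6. A cluster left unnamed, led by Runx2 and Irf8, likewise had 0 of 28 called by edgeR (0.126% of all genes called lower, 0.136% higher) and 0 by DESeq2. At an unadjusted p under 0.05, 5 were lower (3.59% of all genes), and Ifi203 stood in it at 180, 227 and 421.

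Monocytes and conventional dendritic cells had 0 of 41 members called by edgeR (0.565% of all genes called lower, 0.327% higher), 14 at an unadjusted p under 0.05, all lower (5.44% of all genes), and 1 called by DESeq2. Its clusters were then taken singly, a step added after the data had been seen. In the monocyte cluster led by Fn1 and Ccr2, 9 of 39 members were lower (2.13% of all genes), with a median log2 fold change of -0.71. Ifi27l2a was at 432, 744 and 1544 normalised CPM there, a log2 fold change of -1.39 (SE 0.26, edgeR adjusted p = 0.00117), and Zbp1 at 27.6, 33.6 and 61.9, a log2 fold change of -1.01 (SE 0.23, edgeR adjusted p = 0.0117). Slfn5, Oas1a, Oas2, Oas3, Oasl2, Gbp7 and Stat2 were the other 7. In the cluster led by class II genes such as H2-Aa, with Ace, 0 of 36 were called by edgeR (0.289% of all genes called lower). At an unadjusted p under 0.05, 1 was lower (3.69% of all genes) and 3 were higher, and the median log2 fold change was 0.18. Isg15 in that cluster was at 113, 65.6 and 42.9, above wild type in both fusion libraries and not called (edgeR adjusted p = 0.436). The difference between the 2 clusters was not tested.

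Lymphocytes had no member called lower by edgeR or DESeq2. In T, NK and innate lymphoid cells 0 members were lower, where 1.16% of all genes were, and 0 were at an unadjusted p under 0.05 (5.28% of all genes), against 4 of 26 higher at that p. The median log2 fold change was 0.16, 13 of 26 had both fusion libraries above wild type, and 1 of 26 was called higher, where 0.624% of all genes were. That gene was Slfn5, at 106, 46.2 and 34.6 normalised CPM, a log2 fold change of 1.14 (SE 0.33, edgeR adjusted p = 0.0386), and its 2 fusion libraries lay further apart than fusion replicate 2 and wild type. In pro-B cells Gbp7 was higher, at 31.9, 49.8 and 7.67, a log2 fold change of 2.44 (SE 0.48, edgeR adjusted p = 0.000142), 1 of 19 members against 0.377% of all genes, with 0 lower (0.364%). Gbp7 could pass the filter on low counts there through the fusion libraries alone. In pre-B to mature B cells 0 of 22 were called by edgeR (0.951% of all genes called lower, 0.273% higher) or DESeq2, with 2 lower (4.04% of all genes) and 1 higher at an unadjusted p under 0.05. Isg15 there was at 22.6, 50.4 and 12.6 (edgeR adjusted p = 0.0807). Ifi27l2a (243, 581 and 645) and Isg20 (38.7, 28.5 and 55.4) had both fusion libraries below wild type and were not called. DESeq2 called neither Slfn5 nor Gbp7 higher. These 3 classes held from 56 to 382 cells in a library, so fewer members could be tested than in neutrophils.

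The size of the change was compared between classes in 1 model of both. Against erythroid progenitors, 10 of 40 members had a different genotype effect in mature neutrophils, 8 more negative and 2 more positive, where 2.69% and 1.65% of all genes were so called. Ifit2 stood out, nearly level in erythroid progenitors (6.38, 7.38 and 6.92 normalised CPM) and low in fusion neutrophils, a difference in log2 fold change of -2.63 (SE 0.44, edgeR adjusted p = 3.78e-07). Gbp7 differed by -1.35 (SE 0.20, edgeR adjusted p = 5.12e-09). Of the 40, 39 also passed the filter on low counts in erythroid progenitors alone, and all 10 called were among these. Against T, NK and innate lymphoid cells, 12 of 41 members had a more negative effect in mature neutrophils and 0 a more positive one, where 1.11% of all genes were called in each direction. Only 26 of the 41 passed the filter in that lymphocyte class alone, among them 10 of the 12 called, and the other 15 entered through the neutrophils. Zbp1 differed by -3.32 (SE 0.45, edgeR adjusted p = 1.2e-10) and Slfn5, lower in one class and higher in the other, by -2.58 (SE 0.34, edgeR adjusted p = 7.34e-11). Against pre-B to mature B cells 5 members were more negative in mature neutrophils (0.848% of all genes), and against pro-B cells 4 (0.589%). Of the 40 members in each of these models, 22 and 19 passed the filter in the B cell class alone, among them 4 of the 5 and 2 of the 4 called.

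As a level, the summed UMIs of the 42 genes varied more between classes than between genotypes. Plasmacytoid dendritic cells, professional producers of type I interferon, held the most, with 6847, 6250 and 6215 CPM in fusion replicate 1, fusion replicate 2 and wild type. Bst2, a marker of these cells, made up much of that sum, at 4111, 3112 and 3275. The class had 29 and 49 cells in the fusion libraries and was not tested. Next in wild type came monocytes and conventional dendritic cells (2370, 2454 and 3689) and mature neutrophils (1692, 2130 and 3486), whose wild-type levels lay close together. The ratio of fusion to wild type was 0.55 ± 0.09 (SD, n = 2 fusion libraries) in mature neutrophils, 0.62 ± 0.03 in stem, multipotent and lymphoid progenitors and 0.65 ± 0.02 in monocytes and conventional dendritic cells. Without Ifi27l2a the monocyte and dendritic sums were 1856, 1647 and 2146 CPM, closer together than with it, those of mature neutrophils 1482, 1734 and 2550, and those of the progenitors 1105, 1148 and 1739. Immature neutrophils (593, 580 and 708) and megakaryocytes (619, 559 and 675) had the lowest wild-type sums. In T, NK and innate lymphoid cells both fusion libraries were above wild type (2053, 2065 and 1718), and in pre-B to mature B cells they lay on both sides of it (1512, 2145 and 1964).

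**Figure D3:**
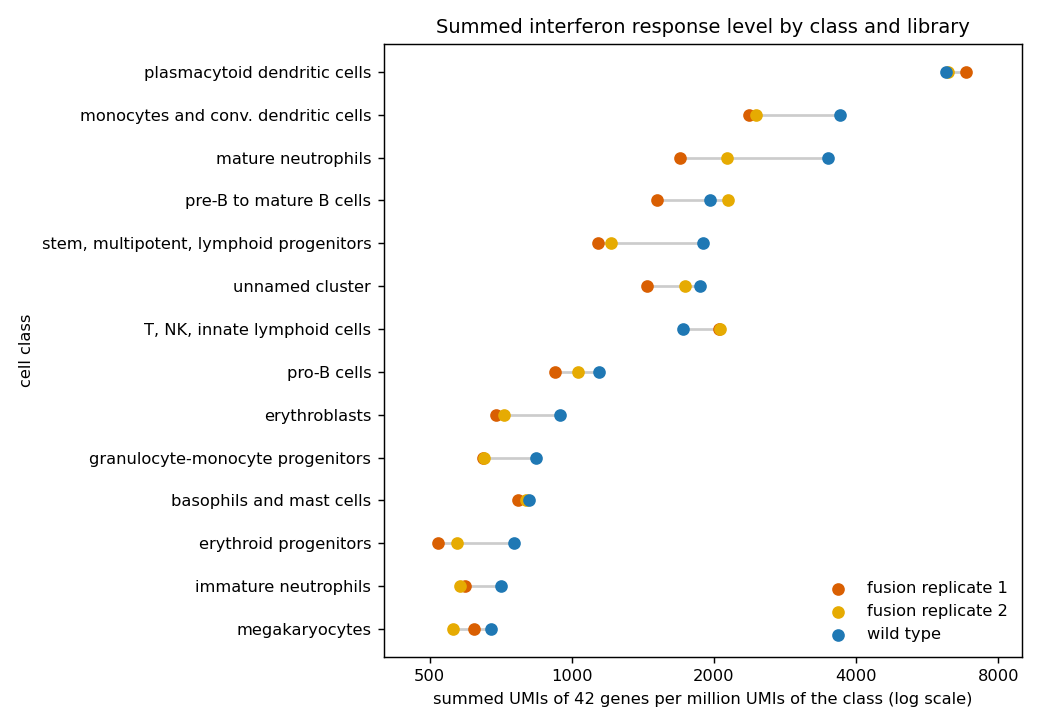
Summed UMIs of the 42 interferon response genes in each class, in CPM (log scale), one point per library, classes ordered by wild type. The fusion points lie left of wild type in mature neutrophils (1692 and 2130 against 3486) and to its right in T, NK and innate lymphoid cells, where wild type stands at 1718 and the fusion libraries at 2053 and 2065.

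Over all cells, the 8 most abundant members were Bst2, Ifi27l2a, Ifi27, Sp100, Ifi203, Trim30a, Isg20 and Eif2ak2. Ifi27l2a made up 16.0% of the module's UMIs in wild type, 5.0% in fusion replicate 1 and 8.6% in fusion replicate 2. Bst2 and Ifi27 took a larger share in the fusion libraries, Bst2 14.5% and 12.5% against 11.5%. The sum of the other 41 genes, without Ifi27l2a, was still 704 and 746 CPM in the fusion libraries against 1101 in wild type.

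To see whether the response was spread over cells or held by few, cells were thinned to 2000 UMIs each and scored for 10 strongly inducible members (Ifit1, Ifit2, Ifit3, Ifit3b, Rsad2, Isg15, Usp18, Cmpk2, Oasl1 and Ifi44). In mature neutrophils, 85 of 1386 wild-type cells had 3 or more of them, 6.13% (exact Clopper-Pearson 95% interval 4.93 to 7.53). In fusion replicate 1 there were 13 of 1358 cells, 0.957% (0.511 to 1.63), and in fusion replicate 2 30 of 1358, 2.21% (1.495 to 3.14). The 3 intervals, which cover counting error only, put both fusion libraries below wild type, and the 2 fusion libraries overlapped only narrowly. Before thinning the shares were 1.77%, 3.83% and 10.1%, and 788, 260 and 383 shallower cells of fusion replicate 1, fusion replicate 2 and wild type were left out by it. The cut is a range and not a cell type: 97 wild-type cells had 2 of the 10 genes and 31 had 3. The exact two-sided permutation test over the 3 labellings gave p = 0.333, the smallest it can give.

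Of all 112 wild-type cells with 3 or more of the 10 genes, 85 were mature neutrophils, 75.9%, as were 13 of 28 in fusion replicate 1 and 30 of 43 in fusion replicate 2. In stem, multipotent and lymphoid progenitors there were 7 of 440 wild-type cells and 1 of 271 and 0 of 269 fusion cells (the last allows up to 1.12%), with overlapping counting intervals. Thinned to 4000 UMIs, the shares were 5.83% in wild type (3.81 to 8.48) and 0.743% (0.0902 to 2.66) and 1.49% (0.408 to 3.78) in the fusion libraries, and the wild-type interval did not overlap the others. In erythroblasts 0 of 126 wild-type cells reached the cut, which allows a share of up to 2.38%. This limit and the 1.12% above are 3 cells over the cells scored and not the exact interval. The sum over all 42 genes, which includes these 10 and Ifi27l2a, was also lower. At 2000 UMIs a mature neutrophil held on average 3.27 and 4.42 UMIs of the 42 genes in the fusion libraries and 7.47 in wild type. In the same order, 87.3%, 89.5% and 96.0% of cells held at least 1.

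**Figure D4:**
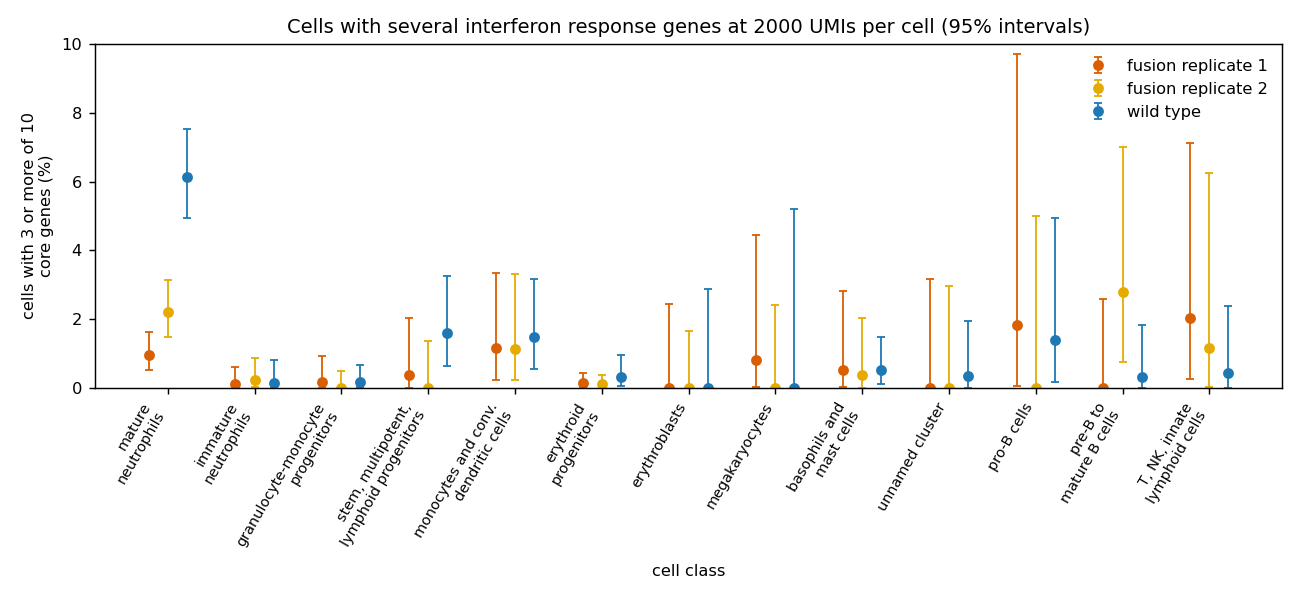
Share of cells with 3 or more of 10 strongly inducible interferon response genes after thinning to 2000 UMIs per cell, by class and library, with exact 95% intervals. Wild-type mature neutrophils stand at 6.13%, above 0.957% and 2.21% in the fusion libraries, and the intervals overlap in the other 12 classes shown.

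Genes around the module were read from context lists. Of 21 interferon genes, 20 had 3 UMIs or fewer in every library, type I interferons included, which is below what this depth can compare. The exception was Ifng, the type II interferon made by T and NK cells, at 0.2199, 0.152 and 0.691 normalised CPM over all cells, a log2 fold change of -1.89 (SE 0.44, edgeR adjusted p = 0.0114). DESeq2 did not call it. The T, NK and innate lymphoid class had 115, 90 and 253 cells, and within it Ifng had a log2 fold change of -0.32 and was not called by edgeR, also at an unadjusted p under 0.05. Of the 6 receptor chains, 0 were called by edgeR or DESeq2 in the sum of all cells or in mature neutrophils. At an unadjusted p under 0.05 edgeR had 3 of them lower over all cells and 0 in mature neutrophils. Of 18 genes of receptor signalling, 6 were lower over all cells and 3 of 17 in mature neutrophils, 0 higher in either. DESeq2 called 3 of them lower over all cells and 0 in mature neutrophils. Irf8, the myeloid interferon regulatory factor, was at 12.2, 6.79 and 25.8 normalised CPM in mature neutrophils, and Socs3, a suppressor of cytokine signalling, at 10.8, 28.5 and 35.5. Ep300 itself belongs to this list as a coactivator.

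Among 19 genes that sense pathogens upstream of interferon, 18 were tested over all cells, where 4 were lower and 1 higher by edgeR, and 3 and 0 by DESeq2. Tmem173, the adaptor STING, was at 13.6, 16.2 and 33.4 normalised CPM, a log2 fold change of -1.17 (SE 0.14, edgeR adjusted p = 0.000171). Unc93b1, which traffics endosomal Toll-like receptors, was at 45.1, 46.3 and 90.7. Mavs, the adaptor of the RNA sensors, was higher at 16.7, 15.3 and 11.1. In mature neutrophils Tlr4 was lower (14.6, 21.5 and 34.8) and Tlr7 higher (17.4, 22.2 and 4.04, log2 fold change 2.28, SE 0.34, edgeR adjusted p = 2.52e-09), each 1 of 16 tested. DESeq2 called 0 lower and 1 higher there.

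A list of 59 further type I interferon induced genes that are not members also had more genes lower than higher. Over all cells 30 of 52 tested were lower and 0 higher, with a median log2 fold change of -0.62, and in mature neutrophils 12 of 43 were lower and 1 higher, with a median of -0.46. DESeq2 called 24 lower over all cells, and 2 lower and 0 higher in mature neutrophils. Gbp9 was at 0.770, 0.377 and 11.4 normalised CPM in mature neutrophils, and Ifi209, of the p200 family, at 1.39, 1.13 and 8.95. Both genes could pass the filter on low counts through the wild-type library alone. The gene that was higher was Ifi30, a lysosomal thiol reductase, at 19.1, 18.9 and 10.2. Of 23 interferon gamma targets, 11 of 21 tested were lower over all cells, among them the GTPase Iigp1 at 0.561, 0.598 and 1.83, and DESeq2 called 3. In mature neutrophils 0 of 14 were called by edgeR or DESeq2, 3 were lower at an unadjusted p under 0.05, and the median log2 fold change was -0.29. For the edgeR calls the background shares are those given above for each class. At an unadjusted p under 0.05 edgeR had 2708 of 15496 genes lower over all cells and 1022 of 9805 in mature neutrophils. Over all cells DESeq2 called 936 of 14057 genes lower and 337 higher. In mature neutrophils it called 99 of 8827 genes lower and 110 higher.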

How the data were processed

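Single bone marrow cells of 2 fusion libraries and 1 wild-type library were profiled with 10x 3' chemistry. The authors deposited unnormalised counts of unique molecular identifiers (UMIs) per gene and barcode. Per the submitters' processing notes the genome was GRCm38 and the tools were Cell Ranger 5.0.1 and bcl2fastq 2.20.0.422. The matrix header names Cell Ranger 5.0.0. The library totals are given as depth per cell in the text, and intervals cover counting error only.

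Barcodes under 1000 UMIs or 400 genes, or with over 10% mitochondrial counts, were dropped. Scrublet at an expected rate of 0.06 then removed 231, 319 and 191 doublets from fusion replicate 1, fusion replicate 2 and wild type. Cells were clustered in scanpy 1.11.5 (2000 variable genes without the members, 30 components, 15 neighbours, Leiden resolution 1 with igraph 0.11.9) and named from marker lists. Joining of classes that shared clusters, and naming by the second-best list, were decided after the clusters had been seen.

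Counts were summed per library and class. The test was edgeR 4.0.16's quasi-likelihood test in R 4.3.3 with TMM scaling, filterByExpr and genotype as the only term. That filter on low counts asks for its cut in 1 library only, so a gene can enter through the group where it is high. Classes were compared in 1 model of their sums, with library as a block, class, and class by genotype as the tested term. A call is a Benjamini-Hochberg adjusted p under 0.05 over all genes. DESeq2 1.42.0 was the alternative tool. With 2 fusion libraries and 1 wild-type library there is 1 residual degree of freedom, and the wild type is assumed to vary like the fusion libraries. The labels do not say that the libraries are separate animals, so p-values measure only the spread between these samples, which may be technical. Tested on simulated data, the edgeR script recovered 95.4% of 200 genes changed 4-fold over all cells and 90.2% in mature neutrophils, counted among the genes that passed the filter. The simulation gave every gene the same spread, in wild type as in fusion. Its false calls are not reported here, so the recovery does not measure them. Plasmacytoid dendritic cells had under 50 cells in a library and were not tested.

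The members and lists were chosen with earlier results of these data known. Genes are named with values if called, if among the 8 most abundant members, if among up to 3 largest changes in a class without calls, or if among up to 4 largest called changes of a context list. Members given with values without a call, genes named in single clusters, Mavs and Ifi30 were chosen after their values were seen. One gene of a context list that this rule names is not reported here.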

Additional observations from a re-analysis of the deposited data

Results flagged for a closer look

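Of the interferon response genes tested in 1 model of both classes, 10 had a genotype effect in mature neutrophils that differed from the effect in erythroid progenitors (edgeR, adjusted p under 0.05), and that tested difference is why they are listed. Each value is the log2 fold change, fusion over wild type, in mature neutrophils minus the one in erythroid progenitors. The more negative effect in neutrophils was found for Ifit2 (-2.63), Gbp2 (-1.85), Zbp1 (-1.74), Slfn5 (-1.47), Ifi203 (-1.42), Gbp7 (-1.35), Herc6 (-0.94) and Isg20 (-0.65). For Dhx58 (0.94) and Ifi204 (2.21), both sensors of nucleic acid, the effect in neutrophils was the more positive. The cause was not tested.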

How the results depend on the processing

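All 81 called member results kept their direction in each of 552 comparisons with an alternative. In 449 they stayed past the threshold and in 103 they did not, 46 of these with DESeq2. The cause of the changes that follow was not tested. The drawing to equal numbers and the single clusters also leave fewer cells. Members lower over all cells were 31, and 20 with the same class makeup. The total lower within classes was 48, and 82 with no filter on low counts and 11 with DESeq2. In mature neutrophils 25 were lower, 7 with DESeq2 and 13 in the cluster led by Retnlg. Stem, multipotent and lymphoid progenitors had 13, but 1 with DESeq2 (0.201% of all genes called lower), 4 at equal cells (1.55%), 5 at Leiden resolution 2 (1.14%) and 3 in the cluster led by Dntt (0.469%). At resolution 2 the class also held clusters led by Cd34 (538 cells), Irf8 (776) and Ctla2a (766), against 986 cells in the main class. Erythroid progenitors had 4, but 9 with DESeq2 size factors (1.15% of all genes called lower) or with members among the variable genes (0.997%). They had 7 at equal cells (1.16%), at resolution 2 (0.995%) or clustered without called genes (1.04%), 2 with DESeq2 (0.395%), and 0 with no filter or doublets kept. With no filter 1 of 18413 genes was called lower in that class, and with doublets kept 0 of 13535. Immature neutrophils had 5, but 8 with no filter (1.68%), 0 with DESeq2 (0.159%) or equal cells, 3 at resolution 2 (0.808%) and 2 in their younger cluster (0.551%). At equal cells 0 of 10024 genes were called lower there. The 1 in basophils and mast cells became 0 with DESeq2 (0.752%), doublets kept (4.57%), equal cells (2.04%), members among the variable genes (5.59%) or clustering without called genes (6.39%). Their 0 higher became 1 at resolution 2 or clustered without called genes. Where 0 were lower, erythroblasts had 10 with no filter (1.51% of all genes called lower), 3 at equal cells (0.685%) and 2 at resolution 2 (0.644%) or with members among the variable genes (0.59%). Granulocyte-monocyte progenitors had 13 with no filter (1.64%) and 3 clustered without called genes (0.369%), and the unnamed clusters 2 with no filter (0.636%). Monocytes and conventional dendritic cells had 2 with DESeq2 size factors (1.44%), 4 with no filter (1.4%), 5 with doublets kept (1.78%) and 9 in the monocyte cluster (2.13%). They had 1 with DESeq2 (0.258%), at resolution 2 (0.978%) or with members among the variable genes (1.09%). The 1 higher in T, NK and innate lymphoid cells became 0 with no filter, DESeq2, doublets kept, equal cells, members among the variable genes and clustering without called genes. No gene of any kind was called higher there with no filter, with DESeq2 or at equal cells. The 1 higher in pro-B cells became 0 with DESeq2, and the 0 higher in pre-B to mature B cells became 1 with doublets kept. Differences between mature neutrophils and erythroid progenitors were 10, and 6 with DESeq2 size factors. With pre-B to mature B cells or pro-B cells as reference they were 5 and 4. In mature neutrophils the ratio of fusion to wild-type shares of cells with 3 or more of the 10 inducible genes was 0.258, and 0.464 at 4000 UMIs, against 0.335 and 0.331 over all cells. The summed level ratio reversed in plasmacytoid dendritic cells, from 1.05 to 0.871 at resolution 2 and 0.897 with members among the variable genes. The cells in that class changed: it held 175 in the main clustering and 516 with members among the variable genes. At resolution 2 it joined a cluster of 171 cells with 1 of 479 cells led by genes such as Runx2 and Irf8. The unnamed cluster led by such genes had a summed level of 1872 CPM in wild type. In pre-B to mature B cells it went from 0.931 to 1.09 without fusion replicate 1. Without fusion replicate 2 it was 0.770. Leaving out either fusion library gave a ratio of 0.485 to 0.611 in mature neutrophils and leaves 1 library against 1, with no test. No paired analysis was possible because the replicate numbers follow accession order and the wild type has 1 library.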
